A study of Mus musculus with 4 samples.

Results

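The fibrillar collagens described here are 9 genes, Col1a1, Col1a2, Col2a1, Col3a1, Col5a1, Col5a2, Col5a3, Col11a1 and Col11a2, out of 27827 gene names on the array. They were found by name in the array files, which list 21 of 41174 probes for them. The microarrays measured RNA of mouse embryonic fibroblasts (MEFs), cells grown out of E14 embryos, with 2 lines that carry both Ip6k1 alleles (Ip6k1+/+) and 2 that lack them (Ip6k1-/-). Ip6k1 encodes inositol hexakisphosphate kinase 1, which makes the inositol pyrophosphate 5-IP7, and the arrays were run to look for functions of this enzyme. Each line came from a different embryo, all embryos came from 1 mating of heterozygous parents, and all 4 lines were immortalised with SV40 large T antigen, thawed and passaged before RNA was taken. No treatment was applied. A line thus stands for 1 embryo and its culture history, and the 2 lines of a genotype are the replicates.

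Fibrillar collagens are secreted as procollagen, chains wound into a long triple helix in which glycine returns at a fixed spacing. After the terminal propeptides are cut off, the helices align into the striated fibrils that give skin, tendon, bone and cartilage their strength, and fibroblasts are their main source in soft tissue. Types I and III form the bulk of interstitial fibrils, type V starts the fibrils and limits their width, and types II and XI are their counterparts in cartilage.

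The 60-base probes show what part of each messenger was read, and the sequences of 8 probes within coding sequence are given here because the results below set probes of the same gene side by side. The deposited files place them on the mouse genome mm9. A glycine codon is any triplet that starts with GG, and in the triple helix it returns every 9 bases. Capitals in the first 3 sequences mark such triplets 9 bases apart. A chain of at least 5 of them was found in 3 of 41174 probes on the array, and all 3 belong to fibrillar collagens, one each to Col5a1 (chr2:27842243-27844666, + strand), Col5a3 (chr9:20590066-20590795, - strand) and Col11a2 (chr17:34189287-34189453, + strand). These regions are longer than the probe, so each of the 3 probes crosses a junction between exons.
Col5a1 A_52_P237371: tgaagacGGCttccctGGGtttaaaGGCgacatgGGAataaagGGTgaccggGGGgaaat
Col5a3 A_52_P503796: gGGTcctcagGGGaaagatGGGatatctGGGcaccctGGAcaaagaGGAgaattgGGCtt
Col11a2 A_52_P563285: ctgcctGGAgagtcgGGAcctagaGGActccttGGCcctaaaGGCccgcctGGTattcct

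Both probes of Col2a1 that gave a signal overlap on the genome (chr15:97806505-97806564 and chr15:97806485-97806544, - strand). The capitals mark the 40 bases that they share, so that they are repeated readings of 1 site and not independent ones.
Col2a1 A_52_P216436: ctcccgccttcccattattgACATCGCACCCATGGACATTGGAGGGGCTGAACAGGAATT
Col2a1 A_51_P317141: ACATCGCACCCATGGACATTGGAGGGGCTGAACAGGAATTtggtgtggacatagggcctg

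Near the start of the messenger, at positions 228 and 242 of the transcript records, lie one probe of Col1a1 (chr11:94799277-94799336, + strand) and one of Col3a1 (chr1:45378397-45378456, + strand). A further Col1a1 probe (chr11:94812052-94812111, + strand) lies at position 3909. No part is in capitals in these sequences. Between tested probes of different fibrillar collagens, the longest run of identical bases was 10.
Col1a1 A_52_P658611: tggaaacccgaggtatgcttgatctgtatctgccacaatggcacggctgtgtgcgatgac
Col1a1 A_51_P377094: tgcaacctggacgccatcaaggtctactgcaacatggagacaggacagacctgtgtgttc
Col3a1 A_52_P684242: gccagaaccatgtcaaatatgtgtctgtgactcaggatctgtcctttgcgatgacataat

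Expression values below are log2 of the deposited signal minus the 75th percentile of the same array, so that 0 marks that percentile, and a difference is the mean of the Ip6k1-/- lines minus the mean of the Ip6k1+/+ lines. Levels of different probes cannot be set against each other, because probes differ in how well they bind. The arrays were alike in depth, with 52 to 55.5% of probes well above background by the scanner software's own flag. The targeted gene matched the labels on all 4 arrays, and its 2 overlapping probes were at least 34.1-fold and 32.8-fold higher in Ip6k1+/+ MEFs, while the third differed by -4.14 on the log2 scale. All 10 fibroblast markers (Thy1, Pdgfra, Pdgfrb, Vim, S100a4, Fn1, Dcn, Lum, Fbln1, Mfap5) were well above background in Ip6k1+/+ replicate 1 and Ip6k1-/- replicate 1. In Ip6k1+/+ replicate 2 the number was 9, and it was 8 in Ip6k1-/- replicate 2. Their summed signal without Vim and S100a4, which were saturated on at least 3 arrays, was 80.7 and 147.7 times the 75th percentile in the Ip6k1+/+ lines and 71.8 and 99.2 times in the Ip6k1-/- lines. Among these 8 markers the Ip6k1-/- mean was lower for 7 and higher for 1, while it was lower for 6537 of the 14335 gene names tested. Pdgfrb, a growth factor receptor of mesenchymal cells, read 4.68 and 4.45 in Ip6k1+/+ MEFs and 3.34 and 3.39 in Ip6k1-/- MEFs, a difference of -1.20 (limma, standard error 0.19, adjusted p = 0.797), and Thy1, the higher one, differed by 1.03 (standard error 1.59). In each line 4 to 5 of 9 osteoblast, 5 to 6 of 7 smooth muscle, 1 to 4 of 7 epithelial, 1 of 6 endothelial and 2 of 6 macrophage markers were well above background. By the brightest probe of each gene, the epithelial Cdh1, Cldn4 and Krt14 were not well above background on any array. The same held for Pecam1, Cdh5, Tek, Tie1 and Emcn (endothelium) and for Ptprc, Csf1r, Emr1 and Itgam (macrophages). Another Csf1r probe (A_51_P365885) was well above background on 1 Ip6k1+/+ array.

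Every fibrillar collagen gave a signal in these MEFs. Of the 21 probes, 15 were well above background in all 4 lines, and 3, all designed on RIKEN cDNA clones of Col2a1, Col3a1 and Col11a1, in none. The test took the 16 probes that were well above background in both lines of at least 1 genotype, of which 2 were saturated in every line. The remaining 14 unsaturated probes cover 8 of the 9 genes.

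Across these 14 probes the Ip6k1-/- mean was lower in 12 and higher in 2. None of them passed limma's test at the threshold of 0.05 after Benjamini-Hochberg adjustment over 21573 probes (adjusted p = 0.994 for each), and of all tested probes 0.0139% were called lower and 0% higher. Before adjustment, limma's p was under 0.05 for 3 of the 14, all lower, against 2.08% of all probes that were lower and 1.27% that were higher at that level. A mean at least 2-fold lower was found for 6, against 4.14% of all probes, and at least 2-fold higher for 0, against 1.83%. The 6 include both overlapping Col2a1 probes and a Col3a1 probe (A_52_P684242) that entered the test through the Ip6k1+/+ lines alone. By the brightest unsaturated probe per gene, 4 of 8 genes were at least 2-fold lower, against 4.68% of gene names. The Ip6k1-/- lines both lay below both Ip6k1+/+ lines for 5 probes, against 12.8% of all probes, and both above them for 0, against 18.4%. Their median difference was -0.65, beside 0.05 over all probes tested, of which 44.1% were lower.
These counts rested largely on 1 line. Ip6k1-/- replicate 2 was the lowest of the 4 lines in 10 of the 14 probes, as it was in 22.3% of all probes, and Ip6k1+/+ replicate 1 was the highest in 7, as it was in 27.7% of all probes. Without Ip6k1-/- replicate 2, the number of probes at least 2-fold lower went from 6 to 3, beside 991 of 22399 over all probes. The 3 were the overlapping Col2a1 probes and 1 Col11a2 probe (A_51_P264666). The median difference went to -0.10. That median was over 15 unsaturated probes, because leaving out a line changes which probes pass the filter on dim probes. Without Ip6k1+/+ replicate 2 the median was -1.11, over 14. In RNA from a whole culture, fewer cells of a type and less RNA per cell cannot be told apart.

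**Figure D1:**
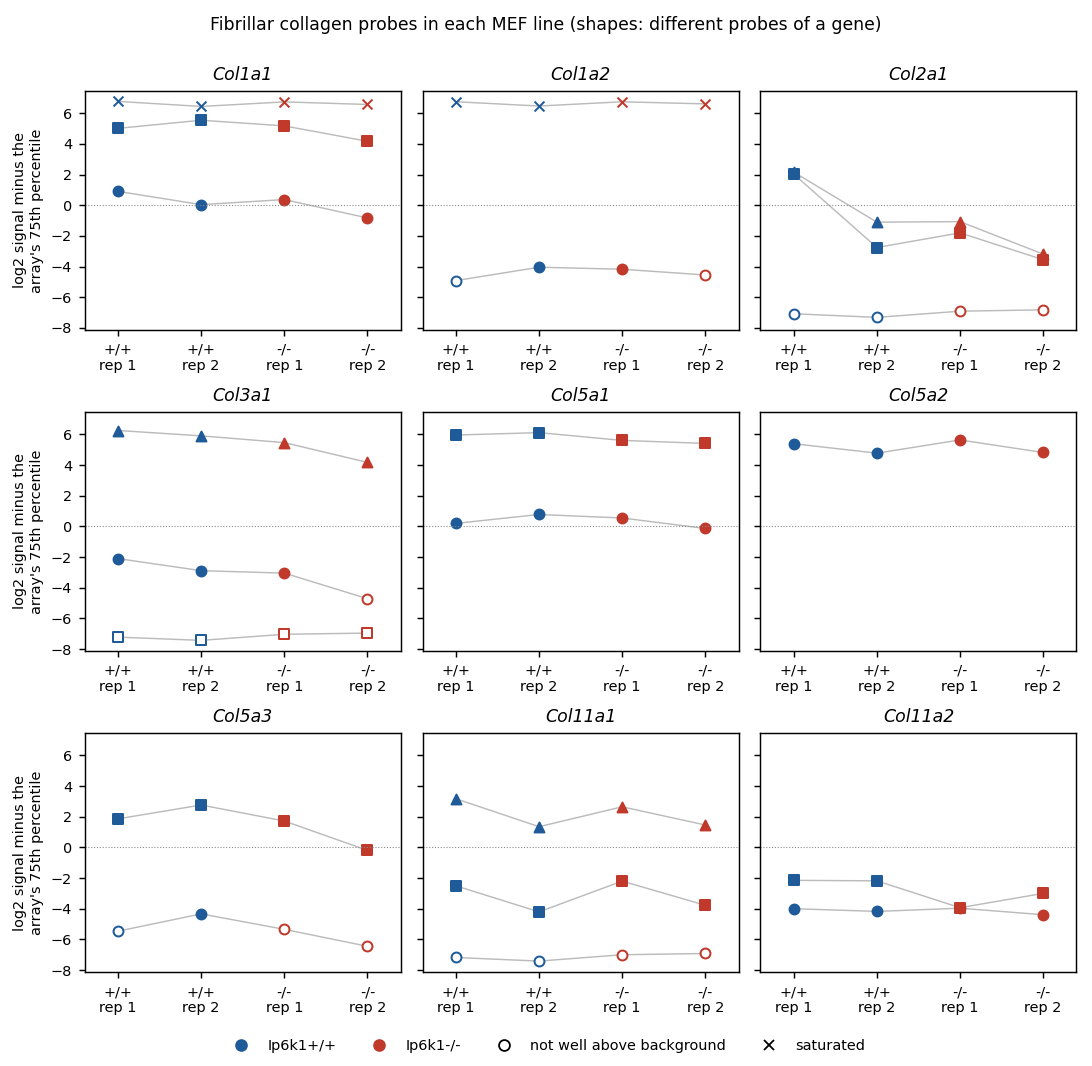
Log2 signal minus the array's 75th percentile (vertical axis) of every fibrillar collagen probe in each of the 4 MEF lines, with different point shapes for different probes of a gene, open points where the signal was not well above background and crosses where it was saturated. On their tested probes, Col3a1 and Col5a3 were lower in both Ip6k1-/- lines, and Col2a1 stood high in Ip6k1+/+ replicate 1 alone. Col5a2 lay between 4.77 and 5.63 in all lines.

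Type I collagen, the main protein of interstitial fibrils, was too bright for a comparison on part of its probes. Col1a2, which encodes the second chain of type I, had 1 bright probe, saturated in all 4 lines, so that no difference can be given for this gene. Its other probe, placed on a RIKEN clone, read -4.91 and -4.04 for Ip6k1+/+ and -4.17 and -4.54 for Ip6k1-/-, was well above background in 1 line of each genotype and was not tested. For Col1a1, the probe printed on the array at 10 spots was saturated at all of them in every line.
The other Col1a1 probes were within range. At position 3909, Col1a1 (A_51_P377094) read 5.02 and 5.54 for Ip6k1+/+ and 5.18 and 4.17 for Ip6k1-/-. Ip6k1-/- replicate 1 lay between the Ip6k1+/+ lines and replicate 2 below them, and the difference was -0.61 (standard error 0.40, limma adjusted p = 0.994, 95% interval -1.66 to 0.45). At position 228 the levels (A_52_P658611) were 0.91 and 0.04 in Ip6k1+/+ MEFs and 0.37 and -0.83 in Ip6k1-/- MEFs, a difference of -0.70 (standard error 0.53, 95% interval -2.09 to 0.69). Both probes thus showed 1 lower Ip6k1-/- line and groups that overlap.

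Type III collagen, a homotrimer of Col3a1 chains abundant in skin and vessel walls, was lower in both Ip6k1-/- lines on both of its measured probes. Col3a1 near the end of the messenger (A_51_P515605, position 4493, chr1:45405589-45405648) read 6.25 and 5.90 in Ip6k1+/+ MEFs and 5.46 and 4.17 in Ip6k1-/- MEFs. The groups did not overlap, and the mean was 2.39-fold lower in Ip6k1-/- MEFs (log2 difference -1.26, standard error 0.46, limma adjusted p = 0.994, 95% interval -2.47 to -0.05). The probe at position 242 read -2.10 and -2.89 against -3.05 and -4.72, the last of these not well above background, for a difference of -1.39 (standard error 0.67). Again the lines did not overlap, and again Ip6k1-/- replicate 2 was the lowest by more than 1 on the log2 scale. Without it the differences were -0.61 at position 4493 and -0.55 at position 242. With another background correction (normexp) the dimmer probe differed by -0.59.

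Type V collagen combines the chains of Col5a1, Col5a2 and Col5a3, and its 3 genes are given in turn. Col5a1, whose chain is in nearly all type V molecules, read 5.95 and 6.11 in Ip6k1+/+ MEFs and 5.61 and 5.41 in Ip6k1-/- MEFs at position 6263 (A_51_P414637). These values did not overlap and gave the tightest interval of the family, -0.998 to -0.05, around a difference of -0.53 (limma, standard error 0.18, adjusted p = 0.994). The Col5a1 probe in the triple helix, the first sequence above, read 0.20 and 0.77 against 0.55 and -0.14, with overlap between genotypes and a difference of -0.28 (standard error 0.37).
Col5a3, which encodes a less common chain, had the levels 1.87 and 2.77 in Ip6k1+/+ MEFs and 1.72 and -0.19 in Ip6k1-/- MEFs (A_51_P241995). Ip6k1-/- replicate 1 lay just under Ip6k1+/+ replicate 1, so that the non-overlap rested on a narrow gap, while replicate 2 was far lower. The mean was 2.93-fold lower (log2 difference -1.55, standard error 0.72, limma adjusted p = 0.994), and without Ip6k1-/- replicate 2 the difference was -0.59. The Col5a3 probe in the triple helix, the second sequence above, was well above background in Ip6k1+/+ replicate 2 only and was not tested.
Col5a2 read 5.39 and 4.77 in Ip6k1+/+ MEFs and 5.63 and 4.82 in Ip6k1-/- MEFs (A_51_P247883, chr1:45433621-45433680, - strand). Each genotype had 1 higher and 1 lower line over the same range, and the difference was 0.15 (standard error 0.37, 95% interval -0.82 to 1.11). Col5a2 is the next gene to Col3a1 on chromosome 1 in the RefSeq table, on the opposite strand, and the difference between the responses of these neighbours was not tested.

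**Figure D2:**
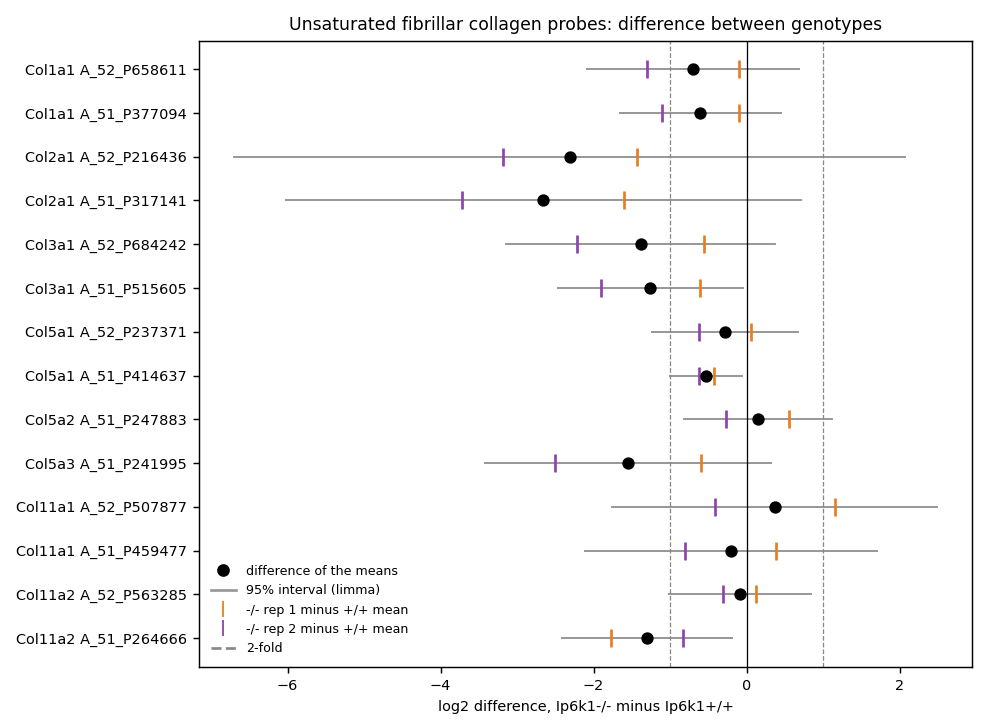
Difference between genotypes of each unsaturated fibrillar collagen probe (black point, log2 scale, Ip6k1-/- minus Ip6k1+/+) with its 95% interval from limma (grey bar) and the value of each Ip6k1-/- line minus the Ip6k1+/+ mean (coloured ticks), and dashed lines at 2-fold. Intervals stay below 0 for 3 probes, of Col3a1, Col5a1 and Col11a2, and the tick of Ip6k1-/- replicate 2 lies left of that of replicate 1 in every probe but the last.

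The cartilage collagens Col2a1 and Col11a1 were measured in every line and differed between lines of the same genotype by more than 1 on the log2 scale. Col2a1, the type II chain that fills cartilage fibrils, had the largest spread of the family. Over its 10 spots (A_51_P317141) it read 2.16 and -1.10 in Ip6k1+/+ MEFs and -1.07 and -3.18 in Ip6k1-/- MEFs. Ip6k1+/+ replicate 1 stood far above the other lines, Ip6k1+/+ replicate 2 and Ip6k1-/- replicate 1 were level, and Ip6k1-/- replicate 2 was lowest. The standard deviation between the 10 spots of an array, which holds spot noise but no variation between cultures, was 0.05 to 0.15. The mean was 6.31-fold lower in Ip6k1-/- MEFs (log2 difference -2.66, standard error 1.29, limma adjusted p = 0.994, 95% interval -6.02 to 0.71).
The overlapping Col2a1 probe (A_52_P216436) read 2.03 and -2.75 against -1.80 and -3.55, a difference of -2.31 (standard error 1.68). Here both Ip6k1-/- lines straddled Ip6k1+/+ replicate 2. Without Ip6k1+/+ replicate 1 the differences of the 2 probes were -1.03 and 0.08, so the size of both, and the sign of the second, rested on that line.

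Type XI collagen takes the chains of Col11a1 and Col11a2 and accompanies type II in cartilage. Col11a1 (A_51_P459477) read 3.18 and 1.35 in Ip6k1+/+ MEFs and 2.65 and 1.47 in Ip6k1-/- MEFs, and the second probe (A_52_P507877) -2.50 and -4.20 against -2.19 and -3.77. In both probes replicate 1 was the higher line of each genotype, by 1.19 to 1.82 on the log2 scale. The differences between genotypes were -0.21 (standard error 0.73) and 0.37 (standard error 0.81), well inside that spread. Replicate numbers do not tie lines across genotypes in the labels.
Col11a2 was read by 2 probes, one lower in both Ip6k1-/- lines and one not. At position 5415 (A_51_P264666) it read -2.14 and -2.18 in Ip6k1+/+ MEFs and -3.93 and -2.99 in Ip6k1-/- MEFs. The groups did not overlap, Ip6k1-/- replicate 1 was the lowest line for this probe alone among the 14, and the mean was 2.46-fold lower (log2 difference -1.30, standard error 0.43, limma adjusted p = 0.994, 95% interval -2.42 to -0.19). The probe in the triple helix, the third sequence above, read -3.99 and -4.17 against -3.96 and -4.38, a difference of -0.09 (standard error 0.36) with overlapping groups. Both are dim probes, and with normexp background correction the first differed by -0.58.

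Markers of cartilage cells varied over the same lines. Of 11 cartilage genes on the array, 7, 5, 6 and 4 were well above background in Ip6k1+/+ replicates 1 and 2 and Ip6k1-/- replicates 1 and 2, and Col9a1, Lect1 and Matn1 in none. Their summed signal, relative to the 75th percentile of the array, was 7.21, 2.50, 5.36 and 0.489 in that order, highest in the line with the most Col2a1 and lowest in the line with the least. The lines between them, with 2.50 and 5.36, were level in Col2a1 on A_51_P317141 (-1.10 and -1.07). On the overlapping probe A_52_P216436 they read -2.75 and -1.80 in that order. The sum is weighted to genes with bright probes, such as Sox9 and Comp, so it does not show that the markers moved together. Sox9, the transcription factor that activates Col2a1 in cartilage, read 1.67 and 1.04 in Ip6k1+/+ MEFs and 1.08 and -2.75 in Ip6k1-/- MEFs (A_52_P577484). Thus 3 lines were near each other and Ip6k1-/- replicate 2 was far below. Comp, a cartilage matrix protein also made by tendon, read 1.01, -3.33, 1.24 and -3.53, and Hapln1, which anchors cartilage proteoglycans, was well above background in Ip6k1+/+ replicate 1 only. Matn3, another cartilage matrix protein, was well above background in Ip6k1-/- replicate 1 only, with -5.28 and -6.19 in Ip6k1+/+ MEFs and -3.37 and -6.92 in Ip6k1-/- MEFs. The part of cartilage-like cells in the Col2a1 values was not tested.

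**Figure D3:**
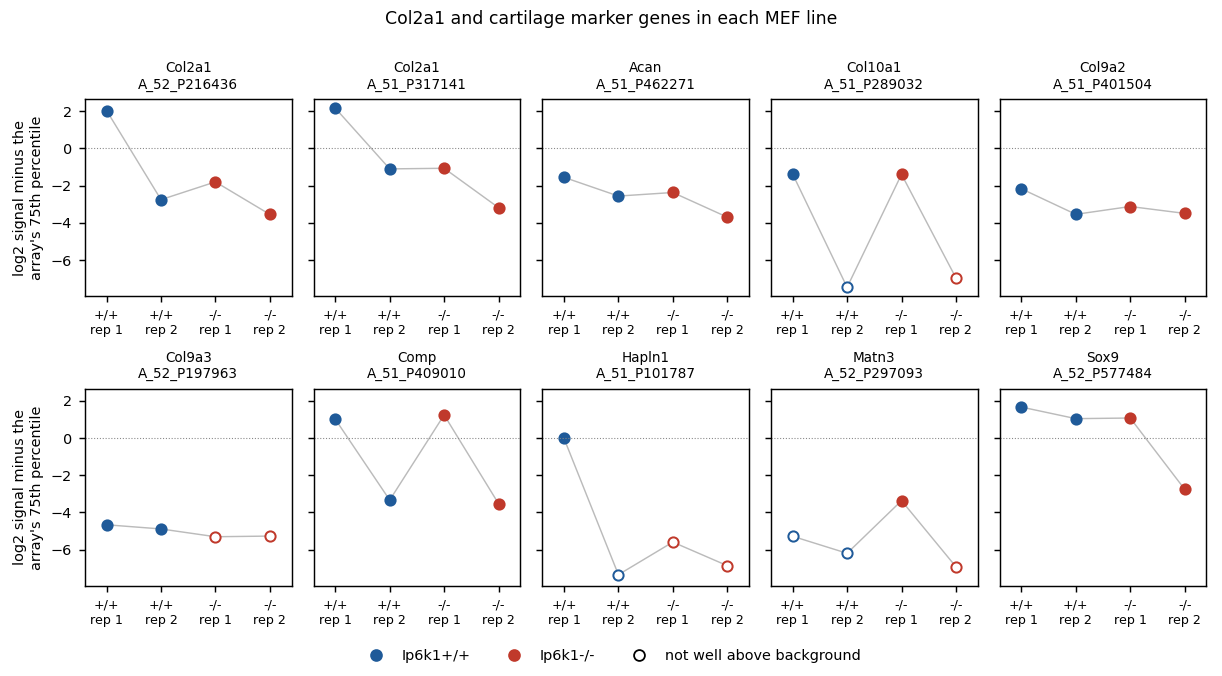
Log2 signal minus the array's 75th percentile of both measured Col2a1 probes and of 8 cartilage marker genes in each MEF line, with open points where the signal was not well above background. Col2a1 and Hapln1 are highest in Ip6k1+/+ replicate 1, Comp and Col10a1 are high in replicate 1 of both genotypes, and Sox9 is low in Ip6k1-/- replicate 2.

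The genes that process, bind and regulate fibrillar collagens were taken as 4 lists, each gene by its brightest tested probe. No gene of the lists was called (limma adjusted p = 0.994 or more for each, against 0.00698% of gene names called lower and 0% higher). Beside the median of 0.04 over 14335 gene names, of which 4.68% were at least 2-fold lower and 1.8% higher, the list medians ranged from -1.30 to -0.02.
Procollagen processing and crosslinking covered 27 tested genes, with 5 at least 2-fold lower, 1 higher and a median of -0.24, and before adjustment limma's p was under 0.05 for 3 lower and 2 higher genes, against 2.38% and 1.33% of all gene names. Adamts2, the protease that removes the amino-terminal propeptide of types I, II and III, had the levels 2.73 and 1.61 in Ip6k1+/+ MEFs and 0.23 and -1.49 in Ip6k1-/- MEFs. Its lines did not overlap, and the mean was 6.94-fold lower in Ip6k1-/- MEFs (log2 difference -2.80, standard error 0.70, limma adjusted p = 0.994, 95% interval -4.63 to -0.96). On 3 further, dimmer Adamts2 probes the Ip6k1-/- lines were not well above background, and Ip6k1+/+ MEFs were at least 4.42-fold, 3.12-fold and 1.04-fold higher. Tll1, a protease of the family that removes the carboxy-terminal propeptide, read -2.55 and -1.50 against -0.05 and -0.58 and was 3.28-fold higher in Ip6k1-/- MEFs (log2 difference 1.71, standard error 0.46, limma adjusted p = 0.994, 95% interval 0.50 to 2.93). Of the enzymes that hydroxylate procollagen, Leprel2 differed by -1.06 (standard error 0.31), and the crosslinking enzyme Loxl2 by -1.03 (standard error 0.75). For Loxl2 the groups overlapped, and without Ip6k1+/+ replicate 2 the difference was -0.07. Its other tested probe, A_51_P275949, differed by -0.16 (standard error 1.32). P4ha3 (-1.42, standard error 0.67) and Leprel1 (-1.01, standard error 0.45) were not well above background in Ip6k1-/- replicate 1, so that their differences rest in part on a background reading. Both are among the 5 lower genes and entered the test through the Ip6k1+/+ lines alone.

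Fibril-associated proteins were the list with the lowest median. Of 22 tested genes, 12 were at least 2-fold lower in Ip6k1-/- MEFs and 0 higher, with a median difference of -1.30, and before adjustment limma's p was under 0.05 for 4 of them, all lower. Without Ip6k1-/- replicate 2, 6 of the 22 were at least 2-fold lower, 3 were higher and the median was -0.47, and without Ip6k1+/+ replicate 1 the median was -0.45 with 8 lower and 1 higher. Of all gene names, 5.14% and 4.9% were at least 2-fold lower without these lines in turn, and 519 and 419 of 14335 were higher. Dcn, a small proteoglycan that coats fibrils, differed by -2.40 (standard error 0.82). It read 1.00 and 1.90 in Ip6k1+/+ MEFs and -2.09 and 0.18 in Ip6k1-/- MEFs, lowest in Ip6k1-/- replicate 1 and not in replicate 2. The matrix protein Tgfbi read 4.65 and 4.30 against 3.85 and 0.35, a difference of -2.37 (standard error 1.15) that was -0.62 without Ip6k1-/- replicate 2. The others of the 6 genes with the largest differences were not well above background in 1 Ip6k1-/- line. Their differences rest in part on that reading. In replicate 2 this held for the proteoglycans Prelp (-3.60, standard error 1.196) and Lum (-1.84, standard error 1.71) and for Col6a3, a chain of the beaded filaments of type VI (-2.49, standard error 1.15), and in replicate 1 for Dpt (-1.91, standard error 2.62). Without replicate 2, Lum was at 0.0669 and Col6a3 at -0.80, and without Ip6k1-/- replicate 1 Dpt was at 1.37. Prelp, Lum, Col6a3 and Dpt are among the 12 and entered the test through the Ip6k1+/+ lines alone. The remaining genes at least 2-fold lower were well above background in all 4 lines. Their lines did not overlap for Postn (-1.59), Col6a2 (-1.50) and Col6a1 (-1.30). Without Ip6k1-/- replicate 2 these were at -2.50, -1.27 and -1.17, and without Ip6k1-/- replicate 1 at -0.68, -1.73 and -1.43. Postn was lowest in Ip6k1-/- replicate 1, and without Ip6k1+/+ replicate 2 it was at -0.96. The lines overlapped for Ogn (-1.82), Aspn (-1.66) and Fmod (-1.30), which without Ip6k1-/- replicate 2 were at -0.18, -0.44 and 1.09. Dcn, Lum and Fn1 of this list are also fibroblast markers. Col24a1 and Col27a1, further chains of the fibrillar class, were counted in this list. Col24a1 was not tested because its probes were not well above background in both lines of a genotype, and Col27a1 differed by -0.30 (standard error 0.79).
Of 9 tested receptors and uptake proteins, 2 were at least 2-fold lower, Mmp2, a gelatinase, with -2.23 (standard error 1.42) and Itga1, a subunit of a collagen-binding integrin, with -1.37 (standard error 1.36, not well above background in Ip6k1-/- replicate 2), and the median was -0.45. Without Ip6k1-/- replicate 2, 0 of the 9 were lower and 2 higher at that size, and the median was 0.29. This stood beside 5.14% of all gene names lower and 519 of 14335 higher. Of 30 transcription factors and inducers, Sox9 alone was at least 2-fold lower (difference -2.19, standard error 1.28), 0 were higher, and the median was -0.02. Without 1 line, 0 to 5 of the 30 were at least 2-fold lower, with 0 without Ip6k1-/- replicate 2 and 5 without Ip6k1-/- replicate 1. The shares of all gene names lower at that size were 5.14% and 6.98% without these lines in turn. In Mmp2 and Sox9 the other 3 lines were close together, and without Ip6k1-/- replicate 2 the differences were -0.0849 and -0.28.

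**Figure D4:**
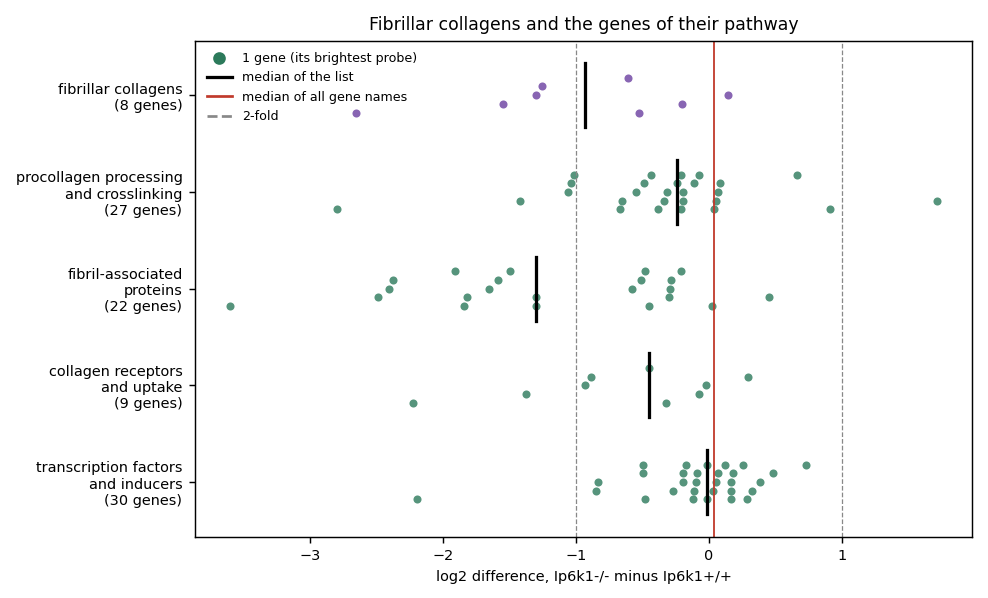
Log2 difference between genotypes of each tested gene by its brightest probe, for 8 fibrillar collagens and 4 lists of collagen pathway genes, with black bars at the median of each list, the red line at the median of all gene names (0.04) and dashed lines at 2-fold. The medians are -0.93 for the fibrillar collagens, -0.24 for processing, -1.30 for fibril-associated proteins, -0.45 for receptors and uptake and -0.02 for transcription factors and inducers.

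The promoters of 2 collagens that were lower in both Ip6k1-/- lines on every tested probe are shown to set their sequence beside these values. RefSeq (GRCm38.p6) gives the 250 bases before the start of 6 of the 9 genes, and 3 letter patterns were searched on both strands. The CCAAT box stood in 3 of the 6 promoters (Col1a2, Col5a3, Col11a1) and in 33.8% of 32851 promoters. The pattern TATAAA stood in 2 of the 6 (Col3a1, Col11a2) and in 12.4% of all, and the pattern GGGCGG in 5 of the 6, all but Col3a1, and in 32.7% of all. Capitals mark the matches on either strand, first for Col3a1 (chr1:45311288-45311537, + strand) and then for Col5a3 (chr9:20815068-20815317, - strand). The 2 promoters shared none of the 3 patterns in these windows.
Col3a1 promoter: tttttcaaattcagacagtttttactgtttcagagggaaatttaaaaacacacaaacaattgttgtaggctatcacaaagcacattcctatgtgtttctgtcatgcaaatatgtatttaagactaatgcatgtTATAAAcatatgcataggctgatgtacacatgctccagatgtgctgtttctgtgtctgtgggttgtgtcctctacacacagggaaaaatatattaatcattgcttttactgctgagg
Col5a3 promoter: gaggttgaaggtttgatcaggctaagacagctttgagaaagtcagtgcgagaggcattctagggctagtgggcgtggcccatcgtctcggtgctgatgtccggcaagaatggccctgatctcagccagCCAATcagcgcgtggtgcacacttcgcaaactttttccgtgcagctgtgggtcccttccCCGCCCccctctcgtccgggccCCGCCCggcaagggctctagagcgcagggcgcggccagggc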

How the data were processed

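RNA of 2 Ip6k1+/+ and 2 Ip6k1-/- MEF lines was labelled with Cy3 from an oligo-dT primer and hybridized to 4 single-colour Agilent arrays of 1 slide. The authors deposited the background-corrected intensity of each spot from Agilent Feature Extraction 10.5.1.1 (probe positions on mm9) and a table of log2 values shifted to the 75th percentile in GeneSpring. The deposited intensity was converted to log2, and each array was shifted by the 75th percentile of its 43379 non-control spots. Spots with an outlier flag were left out (96 to 133 per array), saturated spots kept, and spots of a probe averaged. A probe was tested if both arrays of either genotype measured it well above background (21573 of 41174 probes). The test was limma 3.58.1 (R 4.3.3), with lmFit, then eBayes with its trend option. P-values were adjusted by the Benjamini-Hochberg method over all of them, with a threshold of 0.05. Where a genotype was not well above background on both arrays, its mean was replaced per array by the lowest value among probes flagged well above background, or the probe's own if higher, which gives the folds written "at least". The number of arrays limits the precision. In simulated data for this comparison over 21573 probes, the test recovered 0%, 25.5% and 93.5% of probes changed by 1, 2 and 4 on the log2 scale.

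The scanner files' flags for background and saturation are used as deposited. Members and gene lists were chosen with earlier results of these data known. Every member probe is accounted for, and of each list at most 6 genes past the 2-fold cutoff were named, by largest difference. The list of fibril-associated proteins is the exception, with all of its genes past the cutoff named. Col24a1, Col27a1, Comp, Hapln1, Matn3, Pdgfrb and Thy1 were named after their values were seen, as were Ogn, Aspn, Postn, Col6a2, Fmod and Col6a1. Alternatives were normexp background correction (offset 50), quantile and median scaling, a stricter and no filter on dim probes, dim values set to a floor, saturated spots left out, outlier spots kept, the deposited log2 table, a replicate block, other tests, and each array left out in turn. Figures were drawn with matplotlib 3.10.9. Cell assays and RT-qPCR were not analysed here.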

Additional observations from a re-analysis of the deposited data

How the results depend on the processing

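No fibrillar collagen probe was called under any of 13 settings or without any array, and the smallest limma adjusted p of a member was 0.21, with the replicate block. The number at least 2-fold lower was 4 to 6 over the 13 settings and 3 to 8 when 1 array was left out, 3 of them without Ip6k1-/- replicate 2. In the same fits over all probes, those at least 2-fold lower numbered 893 of 21573 in the main comparison. Over the settings they ranged from 371 of 21569 with normexp to 1608 of 41145 with no filter on dim probes. Without 1 array they ranged from 991 of 22399 to 2100 of 22501. The member count of 8, without Ip6k1+/+ replicate 2, stood beside the 2100. The number at least 2-fold higher was 0 over the settings and 0 to 1 without 1 array, and the 1 was seen without Ip6k1+/+ replicate 1 and without Ip6k1-/- replicate 2. The median difference was -0.66 to -0.53 over the settings and -1.11 to -0.10 without 1 array. Different probes pass the filter in these fits, so the medians were over 13 to 19 and 14 to 16 unsaturated probes. Only 1 probe changed sign with the processing, Col11a2 (A_52_P563285), which was at 0.0205 under normexp. With 1 array left out, the range of the difference crossed 0 for Col11a2 (A_52_P563285, -0.30 to 0.12), Col11a1 (-1.12 to 0.70 and -0.48 to 1.22), Col2a1 (A_52_P216436, -4.71 to 0.0802), Col5a2 (-0.26 to 0.55) and Col5a1 (A_52_P237371, -0.62 to 0.0612). A genotype left with 1 line was assumed to vary like the other.

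Replicate numbers are not said to pair lines. Replicate 1 minus replicate 2 correlated at 0.479 across 21573 probes between genotypes, and with the replicate number as a block limma called 3 probes lower and 0 higher over all probes, as without it, and 0 members. The methods' t-test, unadjusted, gave a smallest member p of 0.0527 and, after Benjamini-Hochberg adjustment, 0.992. Over all probes, limma calls ranged from 0 to 3 between settings. Subtracting the array median put the median difference of all probes at 0.10, and counting a list gene by any probe gave 2 transcription factor genes at least 2-fold lower in place of 1. Leaving out each line for the gene lists, and saturated markers from the fibroblast sum, was chosen after seeing the data. The median of the processing list was -0.51 to 0.02 without 1 line. The saturated probes of Col1a1 and Col1a2 limit what these arrays can show of type I collagen.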

Other observations

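A probe that the files name by its RIKEN clone (AK048202) and describe as Col11a1 lies among the Col11a1 probes on chromosome 3 (113797350 to 113797409, mm9, + strand). It was not counted as a member because its gene name differs. Its level was -7.24 and -6.46 in Ip6k1+/+ MEFs and -6.29 and -4.13 in Ip6k1-/- MEFs, and only Ip6k1-/- replicate 2 was well above background.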
